A study of Mus musculus with 12 samples.

Results

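The 10 genes described here encode NRF2 itself and 9 enzymes or proteins of the antioxidant response that it is known to drive: Nfe2l2, Hmox1, Nqo1, Gclc, Gclm, Srxn1, Txnrd1, Txn1, Prdx1 and Gsta4. They were taken by gene symbol from the count table, where each matched 1 row, so 10 of the 43322 genes in the table are members, and all 10 passed the filter on low counts. RNA came from glial cultures of the frontal cortex of wild-type CD1 mice aged 3 to 5 postnatal days, grown with epidermal growth factor and labelled as primary cultured astrocytes. The labels describe cultures from single mice and do not say which libraries share a mouse. Poly-A RNA was sequenced in 3 groups of 4 libraries. Control cultures received vehicle, the second group received 3 µM thapsigargin for 60 min, and the third was held for 60 min in calcium-free medium, which the labels' protocols give with the chelator EGTA. Thapsigargin blocks the SERCA pumps that load calcium into the endoplasmic reticulum, and calcium-free medium removes the calcium that enters from outside. By its design text the series profiles components of calcium signalling under these conditions, and its title names cell stress responses.

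NRF2, the product of Nfe2l2, is a transcription factor that the adaptor protein KEAP1 marks for degradation, and oxidants or electrophiles that modify KEAP1 let it build up. With a small MAF protein as partner it binds antioxidant response elements of genes for glutathione synthesis, thioredoxin cycling, quinone reduction and heme breakdown. In the brain, astrocytes are known for a strong NRF2 response and for supplying neurons with precursors of glutathione. Much of the control of NRF2 acts on its protein, which was not measured here.

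Library totals ran from 36.2 to 42.6 M counts. The design text calls the 4 samples of a group biological replicates. The 3 libraries numbered 4 stood apart: within a group, chi-square per degree of freedom between 2 libraries was 1.66 to 19.0 among numbers 1 to 3 and 38.0 to 46.0 when 1 of the pair was number 4. The 8 astrocyte markers were all tested and summed to 6375 to 7584 normalised counts (CPM, scaled to a common library size) in control, 5596 to 6775 with thapsigargin and 6589 to 7719 in calcium-free medium. Among them Slc1a3, a glial glutamate transporter, averaged 2638 CPM and Gfap 1359 CPM in control. Markers of other cells were present too. The 7 microglia markers, all tested and none at 0 in any library, summed to 75.5 to 121.5 CPM in control, 62.2 to 91.7 with thapsigargin and 73.6 to 104.6 in calcium-free medium. The 7 fibroblast and vascular markers (6 tested; the endothelial gene Cldn5 at 0 in 8 libraries) summed to 367 to 557 CPM in the libraries numbered 4 and to 1161 to 1518 CPM in the other 9. The 7 oligodendrocyte lineage markers (6 tested; Mog at 0 in 8 libraries) summed to 1467 to 1905 CPM over all libraries, and the 6 neuron markers (4 tested; Rbfox3 at 0 in 2 libraries) to 219 to 276 CPM. The sums of these lists and of the fibroblast and vascular list rested mainly on few genes. Control means were 1329 CPM for Olig1 and 244 for Olig2, but 1.94 for Mbp. Map2 averaged 217 CPM, but Snap25 0.534 and Slc17a7 0.150. Col1a1 averaged 472 and Col1a2 661 CPM, but Dcn 0.801 and Pecam1 0.497. In bulk RNA, fewer cells of a type and less RNA per cell cannot be told apart.

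RefSeq promoter windows (GRCm38.p6, 250 bases before to 50 after a start) were matched for 7 members, and 5 of these held the core of the antioxidant response element, TGACNNNGC, on either strand. They are shown because this is the sequence through which NRF2 and its MAF partner are known to act. Capitals mark the core, as its reverse complement where it lies on the opposite strand. The windows are Nfe2l2 at chr2:75704614-75704913 (- strand), Prdx1 at chr4:116685349-116685648 (+), Srxn1 at chr2:152105274-152105573 (+), Gclm at chr3:122245307-122245606 (+) and 1 of the 3 Txnrd1 starts at chr10:82858956-82859255 (+).
Nfe2l2: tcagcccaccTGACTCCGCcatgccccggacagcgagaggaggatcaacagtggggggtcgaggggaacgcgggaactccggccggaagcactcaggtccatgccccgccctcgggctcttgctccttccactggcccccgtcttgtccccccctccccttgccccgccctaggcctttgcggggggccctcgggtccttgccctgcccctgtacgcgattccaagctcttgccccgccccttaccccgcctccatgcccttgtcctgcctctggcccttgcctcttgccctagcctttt
Prdx1: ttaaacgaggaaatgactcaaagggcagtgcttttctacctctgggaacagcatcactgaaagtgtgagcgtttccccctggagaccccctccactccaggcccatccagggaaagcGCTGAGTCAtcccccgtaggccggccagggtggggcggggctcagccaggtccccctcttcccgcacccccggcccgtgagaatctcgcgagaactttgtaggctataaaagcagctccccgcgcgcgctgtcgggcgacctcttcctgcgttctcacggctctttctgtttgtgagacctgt
Srxn1: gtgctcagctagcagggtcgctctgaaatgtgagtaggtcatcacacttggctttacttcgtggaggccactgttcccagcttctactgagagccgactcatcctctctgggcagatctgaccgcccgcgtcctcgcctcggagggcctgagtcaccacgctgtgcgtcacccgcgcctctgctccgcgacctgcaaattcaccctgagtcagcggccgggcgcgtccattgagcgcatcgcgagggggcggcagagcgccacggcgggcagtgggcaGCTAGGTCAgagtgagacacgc
Gclm: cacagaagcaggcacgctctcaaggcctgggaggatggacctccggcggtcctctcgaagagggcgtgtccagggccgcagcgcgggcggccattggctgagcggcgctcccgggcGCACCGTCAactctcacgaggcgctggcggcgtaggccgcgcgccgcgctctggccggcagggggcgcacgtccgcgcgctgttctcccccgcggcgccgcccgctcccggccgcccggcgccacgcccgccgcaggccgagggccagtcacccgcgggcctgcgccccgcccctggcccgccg
Txnrd1: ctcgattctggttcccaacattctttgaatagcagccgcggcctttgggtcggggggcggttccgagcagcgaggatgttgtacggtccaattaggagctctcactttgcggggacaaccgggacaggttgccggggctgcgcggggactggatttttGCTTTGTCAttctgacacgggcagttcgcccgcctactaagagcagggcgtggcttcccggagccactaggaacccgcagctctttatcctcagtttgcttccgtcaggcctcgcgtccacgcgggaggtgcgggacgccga

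Counted from the start, with -1 the base before it, the core begins at -240 in Nfe2l2, -133 in Prdx1, -134 in Gclm, -92 in Txnrd1 and 29 in Srxn1. By window, 5 of the members' 9 held it, against 12.4% of 32851 of the same length. By gene, 5 of 7 members held it, against 14% of 27025 genes. The AP-1 site TGANTCA, searched on both strands, was found in the windows of Prdx1 and Srxn1, 2 times each, and in no other of the members' 9. Any match was present in 7.81% of all windows and 8.97% of genes. The match at -131 in Prdx1 lies inside the antioxidant element. The C/EBP-ATF element TGATGCAA was in none of the members' windows and in 0.895% of all. The Txn1 and Nqo1 windows held none of the 3 motifs, and no window was matched for Hmox1, Gclc and Gsta4. A match describes letters in these windows only. The core was present both in members that fell with thapsigargin (Prdx1, Gclm, Txnrd1) and in members that did not pass the test (Nfe2l2, Srxn1).

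In control cultures the members spanned a wide range of abundance. On a scale per exon length (TPM), Prdx1, a peroxiredoxin that reduces hydrogen peroxide, was highest at 1271 ± 49.6 TPM (SD, n = 4). Txn1, the cytosolic thioredoxin that recycles peroxiredoxins, followed at 542 ± 17.2 TPM. Hmox1, the inducible heme oxygenase, was at 409 ± 48.6 TPM and Gsta4, a glutathione transferase for lipid peroxidation products, at 332 ± 17.5 TPM, and the libraries of these 2 overlapped. Txnrd1, the cytosolic thioredoxin reductase, was at 239.8 ± 4.87 TPM, and Nfe2l2 at 157 ± 6.16 TPM overlapped with Gclm, the modifier subunit of glutamate-cysteine ligase, at 145 ± 6.13 TPM. Gclc, its catalytic subunit, was at 119 ± 3.32 TPM and Srxn1, the sulfiredoxin that repairs overoxidised peroxiredoxins, at 74.5 ± 16.2 TPM. Nqo1, a quinone reductase widely used as an NRF2 reporter gene, was lowest at 15.5 ± 1.6 TPM. Apart from the 2 overlaps named, neighbours in this order did not overlap in the 4 control libraries.

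Thapsigargin lowered 6 of the 10 genes within 60 min and raised none in the test across all genes. Gsta4 fell by 30.4%, Hmox1 fell by 25.4% and Prdx1 fell by 24.8%. Txn1 fell by 15.3%, Gclm fell by 11% and Txnrd1 fell by 8.27%. Nfe2l2, Nqo1, Gclc and Srxn1 did not pass. Among all 17077 genes tested, 14.8% were called lower and 16.4% higher (edgeR quasi-likelihood test, adjusted p under 0.05). Of these calls 52.5% were higher, and 73.7% with total counts as the only scaling. Among the 8535 genes at least as abundant as Nqo1, the least abundant member, 24.3% were lower and 19.0% higher. In 5 members no thapsigargin library overlapped the controls in CPM, all 5 lower, against 15.1% of all genes. The members' median log2 fold change was -0.18, and that of all genes was -0.05.

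Gsta4 had the largest fall of the 10. Gsta4 (GRCm39 chromosome 9, 78099248 to 78116631) was at 129.9, 128.9, 125 and 113 CPM in control libraries 1 to 4 and at 92.4, 87.6, 88.2 and 78.0 CPM with thapsigargin. Every treated library lay below every control. The log2 fold change was -0.52 ± 0.07 (SE), with edgeR adjusted p = 9.81e-05. Prdx1 (chromosome 4, 116542796 to 116557196) was at 739, 709, 709 and 656 CPM in control and at 556, 538, 531 and 489 CPM with thapsigargin, again without overlap. It fell by 0.41 on the log2 scale (SE 0.05, edgeR adjusted p = 4.60e-05). Its counts were not whole in any of the 12 libraries, as when reads are divided between features, so its level is uncertain. Counts of AV051173, which overlaps it on the opposite strand, averaged 2.71 against 25774 for Prdx1, and the source of the divided reads was not tested.

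Hmox1, which degrades heme to biliverdin, iron and carbon monoxide (chromosome 8, 75820246 to 75827221), did not rise. Its control libraries were at 260.1, 262, 279 and 206 CPM and its thapsigargin libraries at 209, 197, 192 and 153 CPM. Control 4 fell inside the range of the treated libraries, while in all 4 same-numbered pairs the treated library was lower. The log2 fold change was -0.42 ± 0.11 (edgeR adjusted p = 0.0102). Of 11617 other genes averaging 2 or more on the log2 CPM scale, the 3 that followed Hmox1 most closely over the 12 libraries were Acadvl, a mitochondrial fatty acid dehydrogenase, Pbxip1 and Ctsl, a lysosomal protease, with Pearson r of 0.993, 0.989 and 0.989. These values describe 12 libraries that share groups and replicate numbers.

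In the thioredoxin system, Txn1 (chromosome 4, 57943373 to 57956411) was at 219.7, 219.6, 220.2 and 229.6 CPM in control and at 194, 179, 179.8 and 199 CPM with thapsigargin. No libraries overlapped, and the log2 fold change was -0.24 ± 0.04 (edgeR adjusted p = 7.41e-04). Its counts were not whole in 8 libraries. Txnrd1 (chromosome 10, 82669785 to 82733558) was at 377, 384, 383 and 362 CPM in control and at 344, 353, 357 and 328 CPM with thapsigargin. Counts of Eid3 and Gm38560, which overlap it by gene start and end, averaged at most 29.4 against 14875 for Txnrd1. The groups were close but did not overlap, with a log2 fold change of -0.12 ± 0.04 (edgeR adjusted p = 0.0350). The call for Txnrd1 was lost when any of control 1, 2 or 3, thapsigargin 1, 2 or 4 or calcium-free 2 was left out (adjusted p from 0.0521 to 0.0971), and with RLE factors, total counts, no filter or only 2 groups (adjusted p of 0.0787, 0.352, 0.266 and 0.0588). Srxn1 (chromosome 2, 151946738 to 151953296) was at 104, 113, 113 and 66.7 CPM in control and at 106, 103, 102 and 61.8 CPM with thapsigargin. The libraries numbered 4 were far below the others in both groups, and the log2 fold change was -0.09 ± 0.22 (edgeR adjusted p = 0.801). With the replicate number as a block Srxn1 was called, at -0.09 ± 0.03 (adjusted p = 0.0234).

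Of the 2 subunits of glutamate-cysteine ligase, which makes the first product of glutathione synthesis, 1 was called. Gclm (chromosome 3, 122039206 to 122060864) was at 122, 122, 115 and 109.6 CPM in control and at 107, 104, 106 and 99.7 CPM with thapsigargin. The groups did not overlap, and Gclm fell by 0.17 on the log2 scale (SE 0.05, edgeR adjusted p = 0.0160). That call was lost without control 1 or control 2 (adjusted p = 0.0530 and 0.0526), with total counts (0.135) and without the filter (0.0947). Gclc (chromosome 9, 77661817 to 77701771) was at 168, 172, 177 and 173 CPM in control and at 171, 163, 166 and 157 CPM with thapsigargin. These overlapped, and its log2 fold change of -0.07 ± 0.04 was not called (edgeR adjusted p = 0.198, 0.0554 with the replicate block).

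Nqo1 (chromosome 8, 108114856 to 108139012) was at 21.4, 21.4, 21.6 and 17.0 CPM in control and at 19.8, 18.1, 18.2 and 14.8 CPM with thapsigargin. Thapsigargin 1 to 3 were all lower than control 1 to 3 and thapsigargin 4 was lower than control 4, but the groups overlapped through control 4. The log2 fold change of -0.20 ± 0.11 gave an edgeR adjusted p = 0.212, and 0.00197 with the replicate block.

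Nfe2l2 was the only member with a positive estimate. The gene (chromosome 2, 75505860 to 75535007) was at 234, 241, 242 and 219 CPM in control and at 262, 258, 260.1 and 240.5 CPM with thapsigargin. In CPM thapsigargin 4 lay inside the control range, and each treated library was above its same-numbered control. In TPM, which was not tested, the thapsigargin libraries began at 176 and the controls ended at 162, without overlap. The log2 fold change was 0.12 ± 0.05 (95% interval 0.02 to 0.23), with edgeR adjusted p = 0.0804. Nfe2l2 was called higher with the replicate block (adjusted p = 6.40e-04), in replicates 1 to 3 alone (adjusted p = 1.85e-04) and with DESeq2 (0.0298). It was also called with total counts as the only scaling (0.00768), without the filter on low counts (0.0486) and without thapsigargin 4 or calcium-free 4 (0.0415 and 0.0406). It was not called with RLE factors (0.0532), only 2 groups (0.0661), the trend with exon length removed (0.130) or upper quartile factors (0.210). Leaving out any other single library gave no call either (adjusted p up to 0.177). The genes most alike in pattern over the 12 libraries were Bdkrb2, a bradykinin receptor, Ndst3, a heparan sulfate enzyme, and Wdfy2, with Pearson r of 0.981, 0.965 and 0.964.

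**Figure D1:**
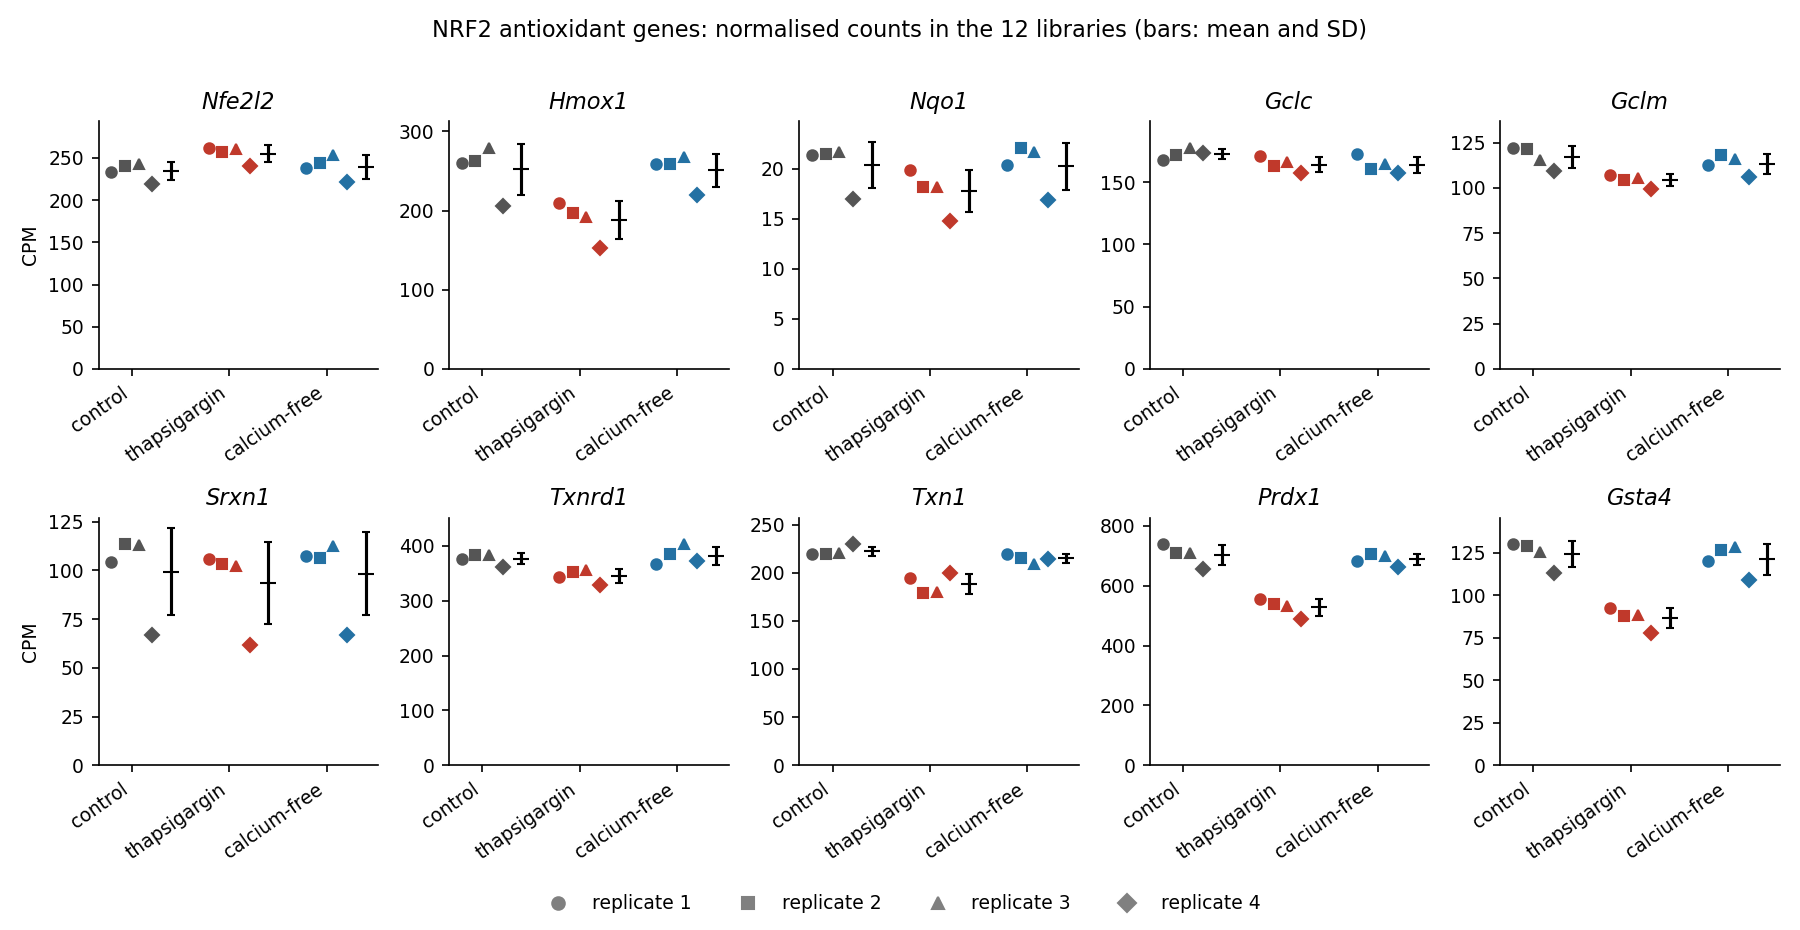
Normalised counts (CPM, axes from 0) of the 10 genes in each of the 12 libraries, with marker shape for the replicate number and a bar for the mean and SD of the 4 libraries. Gsta4 and Prdx1 are lower in every thapsigargin library than in any control, and Srxn1 in the libraries numbered 4 lies at 61.8 to 66.7 CPM in all 3 groups.

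With the replicate block, 8 members were lower and 1 higher with thapsigargin, where 28.2% of all genes were called lower and 23.0% higher. In replicates 1 to 3 alone, 7 were lower and 1 higher, where 21.2% of all genes were lower and 24.4% higher. Scaling by total counts left Hmox1, Txn1, Prdx1 and Gsta4 called lower, where 1280 of all genes were lower (2531 in the main fit). In TPM, which was not tested, Txnrd1 averaged 239.8 in control and 240.9 with thapsigargin. Txnrd1, Gclm and Txn1 overlapped between these groups in TPM, while Gsta4 and Prdx1 were still lower in every thapsigargin library.

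The members that fell most have the shortest transcripts. Gsta4, Txn1, Prdx1 and Hmox1 have summed exon lengths of 958, 1051, 1416 and 1576 bases and log2 fold changes of -0.52, -0.24, -0.41 and -0.42. The other 6 span 2072 to 4019 bases and lay between -0.20 and 0.12. Over all 17077 genes tested, the log2 fold change with thapsigargin and exon length had a Spearman rho of 0.26, a description across genes, which are not independent. The rho was 0.23 for calcium-free medium against the same controls and 0.13 between the treatments, so the trend was not particular to thapsigargin. Among the 653 genes of at least the abundance of Nqo1 with exon lengths from 958 to 1576 bases, 46.6% were called lower and 3.37% higher. Among the 2544 such genes with the exon lengths of the other 6 members, 26.7% were lower and 14.1% higher.

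When the trend with exon length was removed in each library, an alternative chosen after seeing the data, Hmox1, Txnrd1, Txn1, Prdx1 and Gsta4 were still called lower. The log2 fold changes were then -0.38 ± 0.07 for Gsta4 (edgeR adjusted p = 0.00207) and -0.31 ± 0.05 for Prdx1 (6.41e-04). Those of Hmox1 and Txn1 were -0.34 ± 0.11 (0.0394) and -0.11 ± 0.03 (0.0317). Gclm was no longer called, at -0.12 ± 0.05 (adjusted p = 0.0778). For Txn1 the estimate shrank from -0.24 by over 1.5 times. With the trend removed the members' median was -0.13 and that of all genes -0.04, and 53.1% of all calls were higher. The shares of all genes and of short genes called lower in that fit are not given here. The members' calls in it therefore stand without that background.

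**Figure D2:**
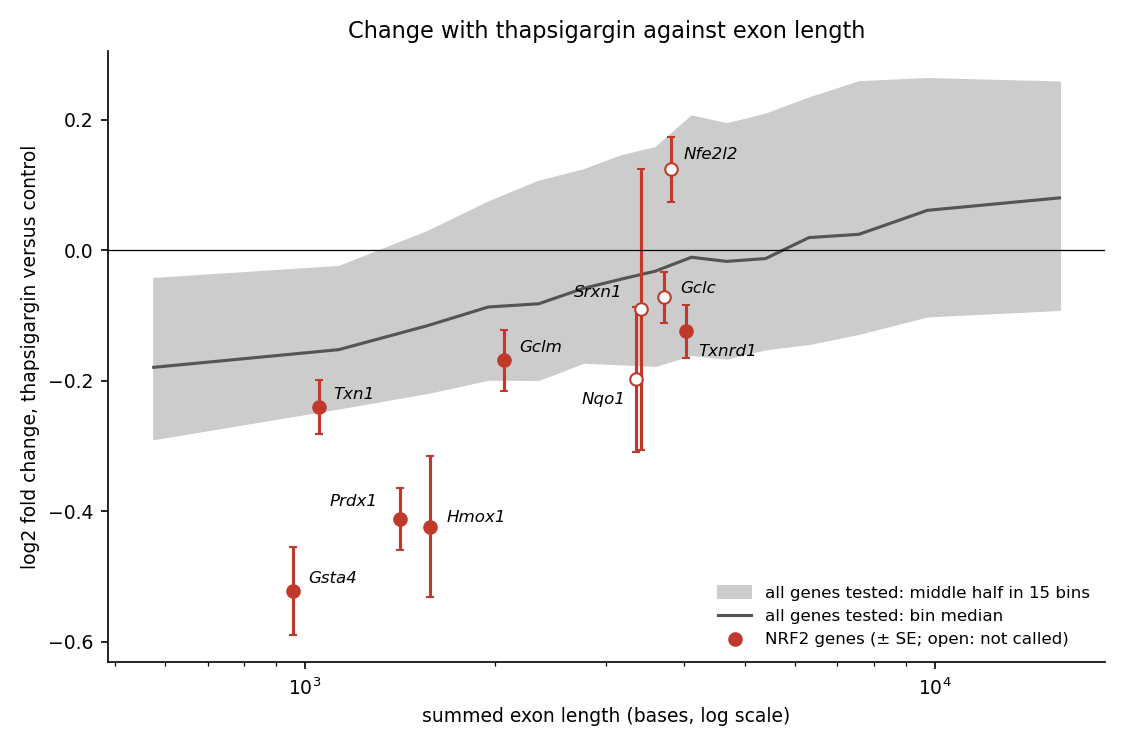
Log2 fold change with thapsigargin against summed exon length (log axis) for the 10 genes, with SE bars and open circles for genes not called. The line and grey band give the median and the quartiles of all 17077 genes in 15 bins of exon length, and Gsta4, Prdx1 and Hmox1 lie farthest below the band.

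None of the 10 genes passed the test in calcium-free medium, which was set against the same control libraries. All 10 overlapped between the groups (10.5% of all genes did not), with log2 fold changes from -0.08 to 0.03 and edgeR adjusted p from 0.354 to 0.995, and 0 had an unadjusted p under 0.05. DESeq2, the replicate block and replicates 1 to 3 alone also called 0 members, where the block called 10.4% of all genes higher and 7.01% lower and replicates 1 to 3 called 10.5% and 5.16%. Among all genes, 3.78% were called higher and 1.55% lower, so a count of 0 among 10 is near the background. The members' median was -0.02 and that of all genes -0.01.

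How large a change these libraries leave room for differed between genes. Hmox1 was at 258, 258, 267 and 219.7 CPM in calcium-free medium, and its log2 fold change against control was -0.01 (95% interval -0.24 to 0.23). Prdx1 was at 684, 706, 699 and 662 CPM (interval -0.14 to 0.07) and Gsta4 at 120.4, 127, 128 and 109 CPM (-0.18 to 0.11). None of these intervals reaches the thapsigargin estimates for the same genes, which were -0.42, -0.41 and -0.52.

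Nfe2l2 was at 238, 245, 254 and 221 CPM, a log2 fold change of 0.03 (95% interval -0.08 to 0.14). Gclc was at 173, 160.3, 164 and 157 CPM, the estimate farthest from 0 at -0.08 (-0.16 to 0.01). Srxn1 had the widest interval, -0.49 to 0.45, with libraries at 107, 106, 112 and 66.6 CPM. The remaining 4 members, Nqo1, Gclm, Txnrd1 and Txn1, were at -0.01 ± 0.11, -0.05 ± 0.05, 0.02 ± 0.04 and -0.05 ± 0.04 (SE).

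Set directly against calcium-free medium, thapsigargin gave lower levels of 5 members, where 13.2% of all genes were called lower and 14.6% higher. Among genes at least as abundant as Nqo1 these shares were 22.9% and 14.6%. For those with exon lengths of 958 to 1576 bases they were 35.8% and 2.76%, and for those with the lengths of the other 6 members 22.5% and 12.9%. Gsta4 was lower by 28.4% (log2 fold change -0.48 ± 0.07, edgeR adjusted p = 2.73e-04), Prdx1 by 23.2% (-0.38 ± 0.05, 1.49e-04) and Hmox1 by 25.1% (-0.42 ± 0.11, 0.0128). Txn1 was at -0.19 ± 0.04 (adjusted p = 0.00428) and Txnrd1 at -0.14 ± 0.04 (0.0193). In these 5 genes no thapsigargin library reached the lowest calcium-free library in CPM, which held for 13.4% of all genes in the lower direction. In TPM this held for Gsta4 and Prdx1, and Hmox1, Txn1 and Txnrd1 overlapped. This comparison uses the same thapsigargin libraries as the first and is the test of whether the treatments differed.

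Gclm was at -0.12 ± 0.05 (adjusted p = 0.0810), and Nqo1, Gclc, Srxn1 and Nfe2l2 did not pass either (adjusted p from 0.202 to 0.953). With the replicate block, 7 were lower and 1 higher (26.9% and 22.4% of all genes), adding Gclm (adjusted p = 0.00272) and Nqo1 (0.00312) below and Nfe2l2 above (0.00665). Txnrd1 was not called without calcium-free 2 or 3 (adjusted p = 0.0530 and 0.0628), without the filter (0.139) or with only 2 groups (0.0892). With total counts as the only scaling neither Txnrd1 (adjusted p = 0.253) nor Txn1 (0.0729) was called.

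**Figure D3:**
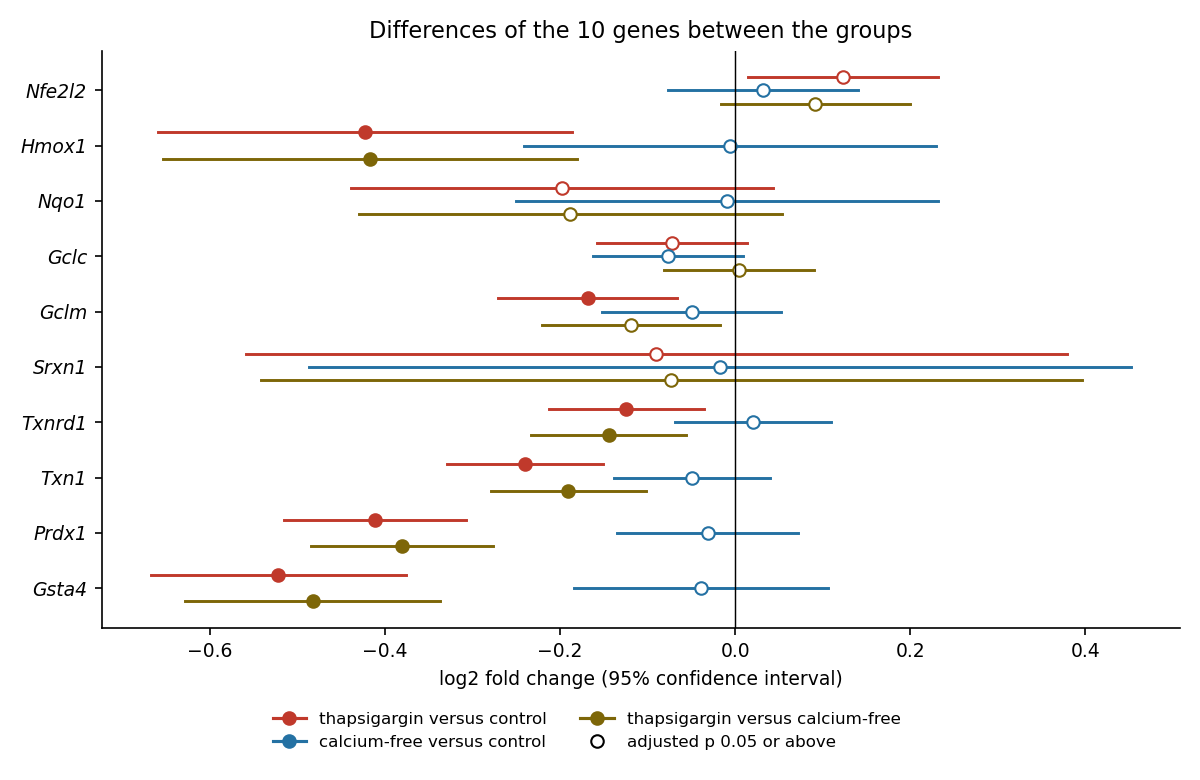
Log2 fold changes of the 10 genes in the 3 comparisons, with 95% confidence intervals from the edgeR fit and open circles where adjusted p was 0.05 or above. Thapsigargin estimates for Gsta4, Prdx1 and Hmox1 lie between -0.52 and -0.38 against both other groups, and the calcium-free estimates lie between -0.08 and 0.03.

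The libraries numbered 4 were low in most members. Srxn1 in number 4 was 0.605, 0.595 and 0.612 times the mean of numbers 1 to 3 in control, thapsigargin and calcium-free medium. For Nqo1 these ratios were 0.789 to 0.791 and for Hmox1 0.768 to 0.841. Number 4 was below all 3 others in every group for Nfe2l2, Hmox1, Nqo1, Gclm, Srxn1, Prdx1 and Gsta4. Txn1 went the other way, with number 4 above the rest in 2 groups. Fibroblast and vascular markers were lower in the same libraries, as given above. Microglia markers were lower there too, summing to 62.2 to 75.5 CPM against 86.1 to 121.5 CPM in the others. Oligodendrocyte lineage markers were higher there, at 1719 to 1905 CPM against 1467 to 1637 CPM. Sums of astrocyte and of neuron markers overlapped when the 3 groups were pooled. Within the thapsigargin group and within the calcium-free group, number 4 had the lowest sum of both. Astrocyte markers summed to 5596 CPM in thapsigargin 4 and 6589 CPM in calcium-free 4, and neuron markers to 219 and 243 CPM. The part of these cells in the values of the members was not tested. With the 3 libraries numbered 4 left out, the log2 fold changes with thapsigargin were -0.48 for Gsta4, -0.37 for Prdx1 and -0.38 for Hmox1.

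The 52 other genes of the pathway, listed by role with earlier results of these data known, were all tested. With thapsigargin 27 were lower and 4 higher, with a median log2 fold change of -0.18. Of all genes 14.8% were lower and 16.4% higher, with a median of -0.05. Among genes at least as abundant as Nqo1 24.3% were lower, and 46.6% of those with exon lengths from 958 to 1576 bases. The 52 genes were not matched to either set. With total counts as the only scaling 16 were lower and without the filter 17. In these settings 1280 and 1456 of all genes were lower, against 2531 in the main fit. With the replicate block 37 were lower and 6 higher (28.2% and 23.0% of all genes). Of 9 regulators and partners of NRF2, 2 were higher and 2 lower (3 and 1 with total counts). Mafk, a small MAF partner, rose from 12.8 ± 0.780 to 21.7 ± 1.4 CPM (log2 fold change 0.76 ± 0.06, edgeR adjusted p = 3.65e-06), and Maff, another, was at 0.72 ± 0.13 (0.00112). Rbx1, a subunit of the ubiquitin ligase that KEAP1 directs, fell by 0.46 on the log2 scale (adjusted p = 2.88e-05), and Nfe2l1, a relative of Nfe2l2, was lower at -0.23 (0.0416). The Nfe2l1 call held without control 4, thapsigargin 2, calcium-free 3 and calcium-free 4, and was lost when any of the other 8 libraries was left out (adjusted p up to 0.117). It was also lost with total counts (0.158), RLE factors (0.0686), only 2 groups (0.0762) and no filter (0.120). Keap1 itself was at 0.03 and the repressor gene Bach1 at 0.04, and neither passed.

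In glutathione supply and use, 1 of 12 was higher and 5 were lower, where 16.4% of all genes were higher and 14.8% lower. The counts were 1 and 8 with the replicate block, 1 and 3 with total counts and 1 and 4 with the length trend removed. Chac1, which breaks glutathione down and is known as an ATF4 target, rose from 2.54 ± 0.335 to 3.46 ± 0.0816 CPM (0.45 ± 0.12, edgeR adjusted p = 0.0109). Gstp1, a glutathione transferase, fell from 165 ± 3.92 to 116.5 ± 3.50 CPM (-0.50 ± 0.03, 8.99e-07). Slc7a11, the cystine importer, was at -0.07 (adjusted p = 0.506). Among 8 thioredoxin and peroxiredoxin partners, 1 was higher and 4 lower (2 and 5 with the block, 1 and 2 with the length trend removed), with Sesn2, a stress-induced sestrin, at 0.30 ± 0.07 (0.00642) and Prdx2 at -0.31 ± 0.03 (2.97e-05).

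All 6 NADPH suppliers were lower (4 with total counts as the only scaling), led by G6pdx, the entry enzyme of the pentose phosphate pathway, from 168 ± 14.1 to 134 ± 12.8 CPM (-0.33 ± 0.08, edgeR adjusted p = 0.0103). All 3 superoxide and peroxide enzymes were lower (1 with total counts, 2 with the length trend removed), where 14.8% of all genes were lower. Sod1 was at -0.19 ± 0.03 (6.08e-04, but adjusted p = 0.779 with the trend with exon length removed). Of 7 heme and iron genes 3 were lower and 0 higher (7 lower with the block, 1 with total counts and 0 with the length trend removed), led by Blvra, a biliverdin reductase, at -0.28 ± 0.08 (0.0135, or 0.0582 with the length trend removed and 0.0550 with total counts). Of 7 detoxification and efflux genes 4 were lower and 0 higher (2 lower with total counts), led by the carbonyl reductase Cbr1 at -0.37 ± 0.05 (2.02e-04).

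With thapsigargin 2 of 8 astrocyte markers were lower and 1 higher (median -0.20), and 2 of 7 microglia markers were lower (median -0.36). Of all genes 14.8% were lower and 16.4% higher. With the block the astrocyte markers had 6 lower and 1 higher and the microglia markers 7 lower, where 28.2% of all genes were lower and 23.0% higher. Oligodendrocyte lineage markers had 1 of 6 tested higher, neuron markers 0 of 4 and fibroblast and vascular markers 0 of 6 called. With the block 3 oligodendrocyte lineage markers were lower and 1 higher, and 1 neuron and 1 fibroblast or vascular marker were lower. The part of these cells in the antioxidant genes was not tested.

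In calcium-free medium 2 of the 52 pathway genes were higher and 1 lower (4 and 6 with the replicate block), with a median of -0.02. Among all genes 3.78% were higher and 1.55% lower (10.4% and 7.01% with the block), with a median of -0.01. Mafk rose again, to 17.0 ± 0.828 CPM (log2 fold change 0.41 ± 0.06, edgeR adjusted p = 0.00336), and Cul3, the ligase scaffold, was at 0.17 ± 0.04 (0.0274, lost without control 1, 2 or 3 or calcium-free 2 or 3, up to 0.0853). Txnip, an inhibitor of thioredoxin, went from 299 ± 56.6 to 191 ± 39.6 CPM (-0.64 ± 0.17, 0.0466). The Txnip call was kept only without thapsigargin 4 or calcium-free 4 and lost without any other single library (adjusted p from 0.0605 to 0.149), as with only 2 groups (0.0753), no filter (0.122) and the length trend removed (0.0561). Between the treatments Txnip was 1.94-fold higher with thapsigargin (0.95 ± 0.17, adjusted p = 0.00129), and 4 pathway genes were higher and 22 lower (4 and 41 with the block). Of all genes 14.6% were higher and 13.2% lower (22.4% and 26.9% with the block), with medians of -0.02 for all and -0.15 for the pathway genes.

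Among those called between the treatments, Maff was higher with thapsigargin at 0.43 ± 0.13 (edgeR adjusted p = 0.0267, lost without thapsigargin 2 or 3 or calcium-free 4, up to 0.0806). Rbx1, Gstp1 and Prdx2 were lower at -0.34, -0.46 and -0.27, Ephx1, an epoxide hydrolase, at -0.39 ± 0.10 and Ftl1, the ferritin light chain, at -0.18 ± 0.05 (0.0128, but 0.249 with the length trend removed, 0.134 with total counts and 0.0616 without the filter). Chac1 was higher at 0.48 ± 0.12 (0.00882). G6pdx at -0.31 was lost without calcium-free 2 or 3 (adjusted p = 0.0535 and 0.0505) and with total counts (0.0621). The call was lost for catalase (Cat) at -0.15 without thapsigargin 2, 3 or 4 or calcium-free 2 or 3 (up to 0.0676), and with total counts (0.240), no filter (0.133) and only 2 groups (0.0654).

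**Figure D4:**
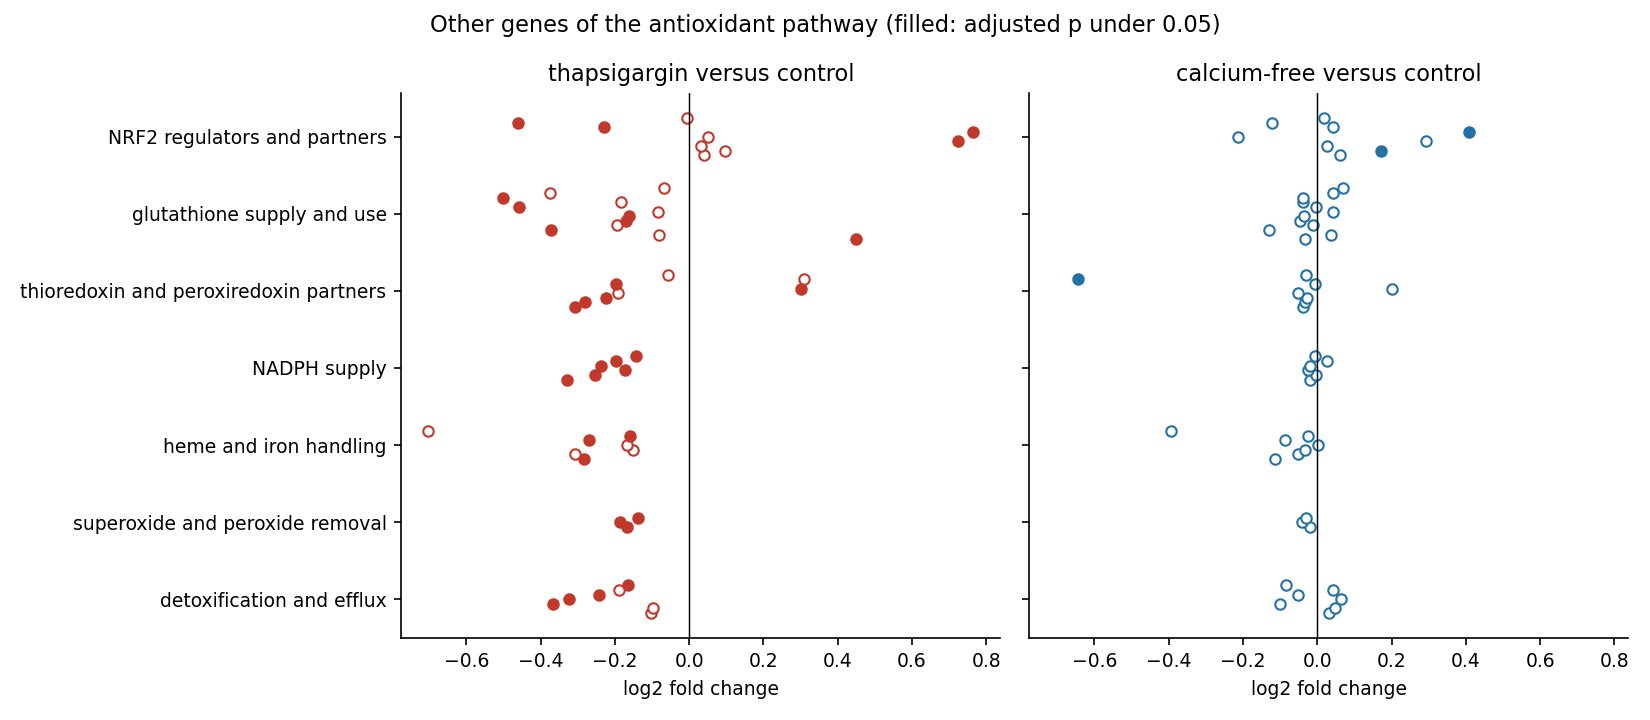
Log2 fold changes of the 52 other pathway genes by role, with thapsigargin (left) and in calcium-free medium (right), each against control; filled circles had an edgeR adjusted p under 0.05. With thapsigargin 27 filled circles lie below 0 and 4 above, and in calcium-free medium 1 below and 2 above.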

How the data were processed

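Poly-A RNA was measured in 12 libraries, grouped by sample title. The submitters' processing notes list GRCm39 and the tools STAR 2.7.2b, bcl2fastq 2.20.0.422, featureCounts 1.6.4 and cutadapt 1.17, with no strand setting. The deposited expected counts per gene are not normalised by the authors. In a library 14.2% to 15.9% of them were not whole, and all were rounded before fitting.

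CPM values use TMM library sizes, and TPM also summed exon lengths. The filterByExpr function (minimum count 10) kept 17077 genes. These entered the robust quasi-likelihood fit of edgeR 4.0.16 (R 4.3.3) with 1 mean per group over all 12 libraries. Adjustment was by Benjamini and Hochberg over all genes in each contrast, with calls under 0.05. Alternatives were RLE, upper quartile and total-count scaling, DESeq2 1.42.0, no filter, a replicate block, 2 groups, replicates 1 to 3, leaving out each library, and removal of the trend with exon length. In simulated counts for the contrast of thapsigargin with control (16933 genes), 22% of 50 genes changed 1.2-fold and 84% of 50 changed 1.5-fold were recovered. There, 4 unchanged genes were called. The simulation changed a far smaller share of genes than was called in the real libraries. It also drew each library independently, without the shared deviation of the libraries numbered 4. These rates therefore need not hold for the real libraries.

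Libraries with the same number in different groups deviated together from their group means (r from 0.159 to 0.836). The number entered only an alternative fit, as a block, and the main fit held the group alone. Number 4 stood out, with r of 0.814 or more. For numbers 1 to 3, same-numbered libraries had r from 0.159 to 0.392 and differently numbered ones from 0.238 to 0.412. These values therefore do not show a pairing for numbers 1 to 3. The labels do not say what a number shares, so p-values measure the spread between these samples.

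The members and gene lists were chosen with earlier results of these data known. The text names all 10 members and, per contrast and role list, the called gene with the largest change in each direction. Maff and Nfe2l1 against control, Cul3, Keap1, Bach1 and Slc7a11 were added after their values were seen.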

Additional observations from a re-analysis of the deposited data

Results flagged for a closer look

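In 4 of 30 groups of 4 libraries (10 genes in 3 groups), 1 library lay so far from the others that its gap exceeded Dixon's 95% limit of the range; chance gives about 1 in 20. All 4 were libraries numbered 4. Nqo1 was at 16.98 CPM in control 4. Srxn1 was at 61.8 CPM in thapsigargin 4 and at 66.6 CPM in calcium-free 4. Txn1 was at 229.6 CPM in control 4, above the others.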

How the results depend on the processing

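Over 21 alternatives, 630 values of the members were recomputed: 562 kept direction and side of the threshold, 22 lost a call, 17 gained one and 29 changed sign, all uncalled (edgeR or DESeq2 adjusted p from 0.789 to 0.999). The cause of these changes was not tested.

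With thapsigargin against control, total-count scaling called 1280 of all genes lower (main 2531), 1 member higher and 16 pathway genes lower, and no filter called 1456, 1 and 17. DESeq2 and replicates 1 to 3 alone each called 1 member higher. In calcium-free medium against control, all genes called higher and lower were 1058 and 428 with DESeq2, 404 and 96 with only 2 groups, and 1782 and 877 in replicates 1 to 3, and 175 were lower with no filter (main 646 and 265). Pathway genes lower were 0 with no filter, 2 groups or the length trend removed, and in replicates 1 to 3 there were 4 higher and 4 lower. With thapsigargin against calcium-free, total-count scaling called 974 genes lower (main 2259), 1 member higher, 3 members lower and 12 pathway genes lower. No filter called 1247 genes and 14 pathway genes lower, and replicates 1 to 3 called 1 member higher and 36 pathway genes lower.

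The share of calls that were higher with thapsigargin against control was 52.5%, but 73.7% with total counts and 66.5% without the filter. Against calcium-free it was 52.5%, and 78.0% and 67.4%. In calcium-free medium it was 70.9%, and 58.5% with upper quartile factors.

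With the replicate block, 4817 genes were lower and 1 member higher with thapsigargin against control. In calcium-free medium 1771 genes were higher and 1197 lower, with 4 pathway genes higher and 6 lower. Between the treatments 3833 genes were higher and 4595 lower, with 1 member higher and 41 pathway genes lower. The block changed no member's call other than those of Nfe2l2, Nqo1, Srxn1 and Gclm given in the report.

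Estimates near 0 changed sign. In calcium-free medium Hmox1 was at 0.0031 with RLE factors and with DESeq2, and Txnrd1 at -0.0081 with upper quartile factors. With the length trend removed, Hmox1 was at 0.0357, Nqo1 at 0.005, Prdx1 at 0.0117 and Gsta4 at 0.0108, and between the treatments Gclc was at -0.0183. Srxn1 between the treatments was at 0.0081 with total counts.

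Leaving out 1 library at a time, with thapsigargin against control, gave 2361 to 3031 genes higher and 1924 to 2719 lower, 0 to 1 members higher, 4 to 6 lower, and 4 to 5 pathway genes higher and 21 to 33 lower. In calcium-free medium the ranges were 296 to 849 genes higher, 76 to 600 lower, 1 to 3 pathway genes higher and 0 to 1 lower. In that comparison the lowest counts came without calcium-free 2 (296 and 76) and the highest count lower without calcium-free 1 (600). Counts were also more than 1.5 times smaller without control 1, 2 or 3 or calcium-free 3 (311 to 344 higher, 90 to 113 lower) and, for genes lower, without thapsigargin 2 or 3 (170 and 162). Between the treatments they were 1993 to 2654 and 1623 to 2545 genes, 4 to 5 members lower, and 3 to 5 pathway genes higher and 15 to 27 lower. Log2 fold changes of Srxn1 then ran from -0.2405 to 0.0637 with thapsigargin, from -0.1667 to 0.1254 in calcium-free medium and from -0.2088 to 0.0802 between the treatments. In calcium-free medium Hmox1 ran from -0.0904 to 0.0483, Nqo1 from -0.0867 to 0.0654, Txnrd1 from -0.0062 to 0.0395 and Gsta4 from -0.0809 to 0.0049, and between the treatments Gclc ran from -0.0157 to 0.0302.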
